A study of Mus musculus with 18 samples.

Results

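A set of 8 genes of simple and oviduct epithelium were followed across whole mouse ovaries in which luteinizing hormone (LH) was normal or chronically raised. They are Krt8, Krt18, Krt19, Cdh1, Pax8, Ovgp1, Foxj1 and Plet1, 8 of the 6137 genes to which the platform annotation gives a probe set of their own. They were represented by 9 probe sets, 6 on the chip type that the labels leave unmarked (called chip A here) and 3 on the one they mark as B. Krt8 was on both chips, Cdh1 and Pax8 on chip B, and the others on chip A. The genes had been picked because they were low in the transgenic ovaries and lowest in a tumour, so the differences by genotype and in the tumour are given as a description, without a test. Age and strain were tested. The tumour is a CF-1 ovary of 5 months, so the choice of genes bears on both of these factors through that array, and their estimates are given with and without it.

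Simple epithelia assemble their intermediate filaments from a type II keratin, KRT8, paired with a type I keratin, KRT18 or KRT19, and hold their cells together through E-cadherin, the product of Cdh1. The surface of the ovary is covered by a simple layer of modified mesothelium that carries these keratins, and the oviduct lies against it in its bursa, so that a dissected ovary can carry oviduct with it. The oviduct lining has secretory cells, in which PAX8 is a defining transcription factor and OVGP1 a major secreted glycoprotein under oestrogen control, and ciliated cells, in which FOXJ1 directs the formation of motile cilia. Plet1 encodes a surface protein of epithelial and trophoblast progenitor cells.

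Each of 9 conditions had 1 array of each chip type, 18 arrays in all. The wild-type ovaries came from CF-1 mice and from CF-1xC57BL/6 F1 hybrids at 2 and at 5 months. The untreated transgenic ovaries, of LH hypersecreting (LHCTP) mice, were cystic at 2 months in both strains. At 5 months the CF-1 ovary was a granulosa cell tumour and the hybrid ovary a luteoma. The remaining condition was a CF-1 transgenic ovary at 5 months after treatment with human chorionic gonadotropin (hCG), which the labels also call a luteoma. The tumour's chip B array is described as 2 months old in 1 label, but its title and source say 5 months, and those were followed. The labels name the ovary and not a cell type, the promoter of the transgene or whether animals were pooled, and no condition has a second animal on record. In whole ovaries, fewer cells of a type and less RNA per cell cannot be told apart.

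Values are scanner intensities, scaled so that all arrays of a chip type share a trimmed mean, and are given in these units. Values under a floor (183.8 units for chip A, 290.7 for chip B) were raised to the floor for log2 differences, and 2 floors, 367.6 or 581.4 units, was the limit of detection. A probe set was tested when it reached this limit on at least 2 of the 9 arrays, as did 6408 probe sets and all 9 described here. The share of probe sets at the limit was alike over the arrays, 54.3% to 57.7% for chip A and 28.0% to 29.5% for chip B. Ovarian identity was plain in every condition, since Inha, the inhibin alpha subunit, read between 10402 and 25616 units. One pattern cut across the groups. The Affymetrix control BioDn-5 on the opposite strand read 768 to 812 units in the CF-1 wild type of 5 months, the tumour and the hybrid luteoma on chip A, and 194 to 387 units in the other 6 conditions, with 531 to 719 against 51.0 to 330 units on chip B. All 3 high arrays are of 5 months, and what sets them apart is not recorded in the labels.

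The stretches just upstream of the annotated starts give the members a sequence context, and RefSeq (GRCm38.p6) supplied them for 5 of the 8 genes, Krt8, Krt18, Pax8, Ovgp1 and Plet1. The last 120 bases before the start are shown for 4 of these, the keratin pair Krt8 and Krt18, and Ovgp1 and Plet1, whose levels parted in the hybrid cystic ovary. Krt8 and Krt18 are neighbouring coding genes on chromosome 15. Capitals mark CAGGTG (the E-box bound by Snail and Zeb repressors, CACCTG on the other strand), TATAAA (the TATA box), GGGCGG (the GC box) and GGTCA (a half-site of the oestrogen response element, TGACC on the other strand).
Krt8, chr15:102004343-102004462, minus strand: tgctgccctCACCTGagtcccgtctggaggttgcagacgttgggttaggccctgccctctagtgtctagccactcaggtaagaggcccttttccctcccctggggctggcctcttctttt
Krt18, chr15:102028096-102028215, plus strand: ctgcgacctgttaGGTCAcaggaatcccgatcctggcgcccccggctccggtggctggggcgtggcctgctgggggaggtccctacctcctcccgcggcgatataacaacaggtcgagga
Ovgp1, chr3:105973682-105973801, plus strand: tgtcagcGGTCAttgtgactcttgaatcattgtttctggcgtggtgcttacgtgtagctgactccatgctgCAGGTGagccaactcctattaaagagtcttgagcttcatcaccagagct
Plet1, chr9:50494405-50494524, plus strand: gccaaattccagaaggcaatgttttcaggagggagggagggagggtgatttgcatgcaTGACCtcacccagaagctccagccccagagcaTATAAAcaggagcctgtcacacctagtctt
Krt8 has the E-box 111 bases and Ovgp1 49 bases before the start, and Plet1 has a TATA box at 30 bases. Over the whole 250 bases searched on both strands, CAGGTG was found in 4 of the 5 member promoters (Krt8, Krt18, Ovgp1, Plet1) and in 17.2% of the 32851 promoters in the table. GGTCA was found in the same 4 and in 35.2% of all promoters, TATAAA in Plet1 alone and in 12.4%, and GGGCGG in Pax8 alone and in 32.7%. No match overlapped another in these promoters. These are letter matches, and none of the arrays measured binding.

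Krt8, the type II partner of the simple keratins, was the most widely detected of the genes, since it was above the detection limit in all 9 conditions and was read by a probe set on each chip. On chip A the wild types read 2537 units (CF-1, 2 months), 1276 (CF-1, 5 months), 3083 (hybrid, 2 months) and 2346 (hybrid, 5 months). The transgenic ovaries read 1069 and 1008 units when cystic (CF-1 and hybrid), 644 in the hybrid luteoma and 372 in the tumour. The tumour value lay close to the detection limit of 367.6 units. The 4 transgenic arrays therefore all lay below the 4 wild-type arrays, with means of 773 ± 327 and 2310 ± 757 units (SD, n = 4 each). On chip B the wild types read 2684, 1810, 2771 and 3180 units in the same order. The transgenic ovaries read 1174, 1141, 919 and 607 units there, again without overlap and with the same order among the 4. The 2 probe sets gave similar log2 differences from wild type. They were -1.25 and -1.19 in the CF-1 cystic ovary and -1.61 and -1.28 in the hybrid cystic ovary. In the tumour they were -1.78 and -1.57, and in the luteoma -1.87 and -1.79. The 2 probe sets disagreed by 0.002 to 0.333 over the 6 comparisons made, while the 179 genes tested on both chips disagreed by a median of 0.217 to 0.394. In the hybrid cystic pair the 0.333 of Krt8 was above the median of 0.321, and in each other comparison Krt8 was below it.

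Krt18, a type I keratin that pairs with KRT8, read 1877, 1448, 2327 and 1805 units in the wild types (CF-1 at 2 and 5 months, hybrid at 2 and 5 months). It read 1150 units in the CF-1 cystic ovary, 1166 in the hybrid cystic ovary and 1247 in the hybrid luteoma, and 151 units, under the floor, in the tumour. All 4 transgenic ovaries lay below the wild types, but outside the tumour the gap was narrow. It was 1.63-fold lower than wild type in the CF-1 cystic ovary, 1.99-fold in the hybrid cystic ovary and 1.45-fold in the luteoma, and at least 7.88-fold in the tumour. Krt18 thus stayed closest to wild type of the 3 keratins in the non-tumour transgenic ovaries.

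Krt19, the smallest type I keratin and the other partner of KRT8, read 2762, 1834, 3901 and 2799 units in the wild types in that order. The transgenic ovaries read 1238 units (CF-1 cystic), 1468 (hybrid cystic), 1403 (hybrid luteoma) and 160 (tumour), without overlap. The mean was 2824 ± 846 units over the wild types and 1067 ± 612 over the transgenic arrays (SD, n = 4 each). Relative to wild type it was lower by 2.23-fold and 2.66-fold in the cystic ovaries and at least 9.98-fold in the tumour.

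Cdh1, which encodes the adhesion molecule of epithelial junctions, read 1571 (CF-1) and 1827 (hybrid) units at 2 months, and 693 and 1512 at 5 months. The transgenic ovaries read 663 and 733 units (CF-1 and hybrid cystic), 381 (hybrid luteoma) and 101 (tumour, under the floor). The groups overlapped through a single pair, the CF-1 wild type of 5 months at 693 units and the hybrid cystic ovary at 733. Within strain and age, Cdh1 was 2.37-fold and 2.49-fold lower in the cystic ovaries, 3.97-fold lower in the luteoma and at least 2.38-fold lower in the tumour. The value for the tumour is limited by the floor and by the low level of that wild type.

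Plet1 had the widest separation of the epithelial genes, with a mean log2 difference of -2.30 between transgenic and wild-type arrays. Wild types read 4811 units (CF-1) and 8171 (hybrid) at 2 months, and 2383 and 5226 at 5 months. The transgenic ovaries read 1613 and 1801 units when cystic, 1568 in the luteoma and 166 in the tumour, so the groups did not overlap. It was 2.98-fold and 4.54-fold lower in the cystic ovaries, 3.33-fold in the luteoma and at least 13.0-fold in the tumour.

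**Figure D1:**
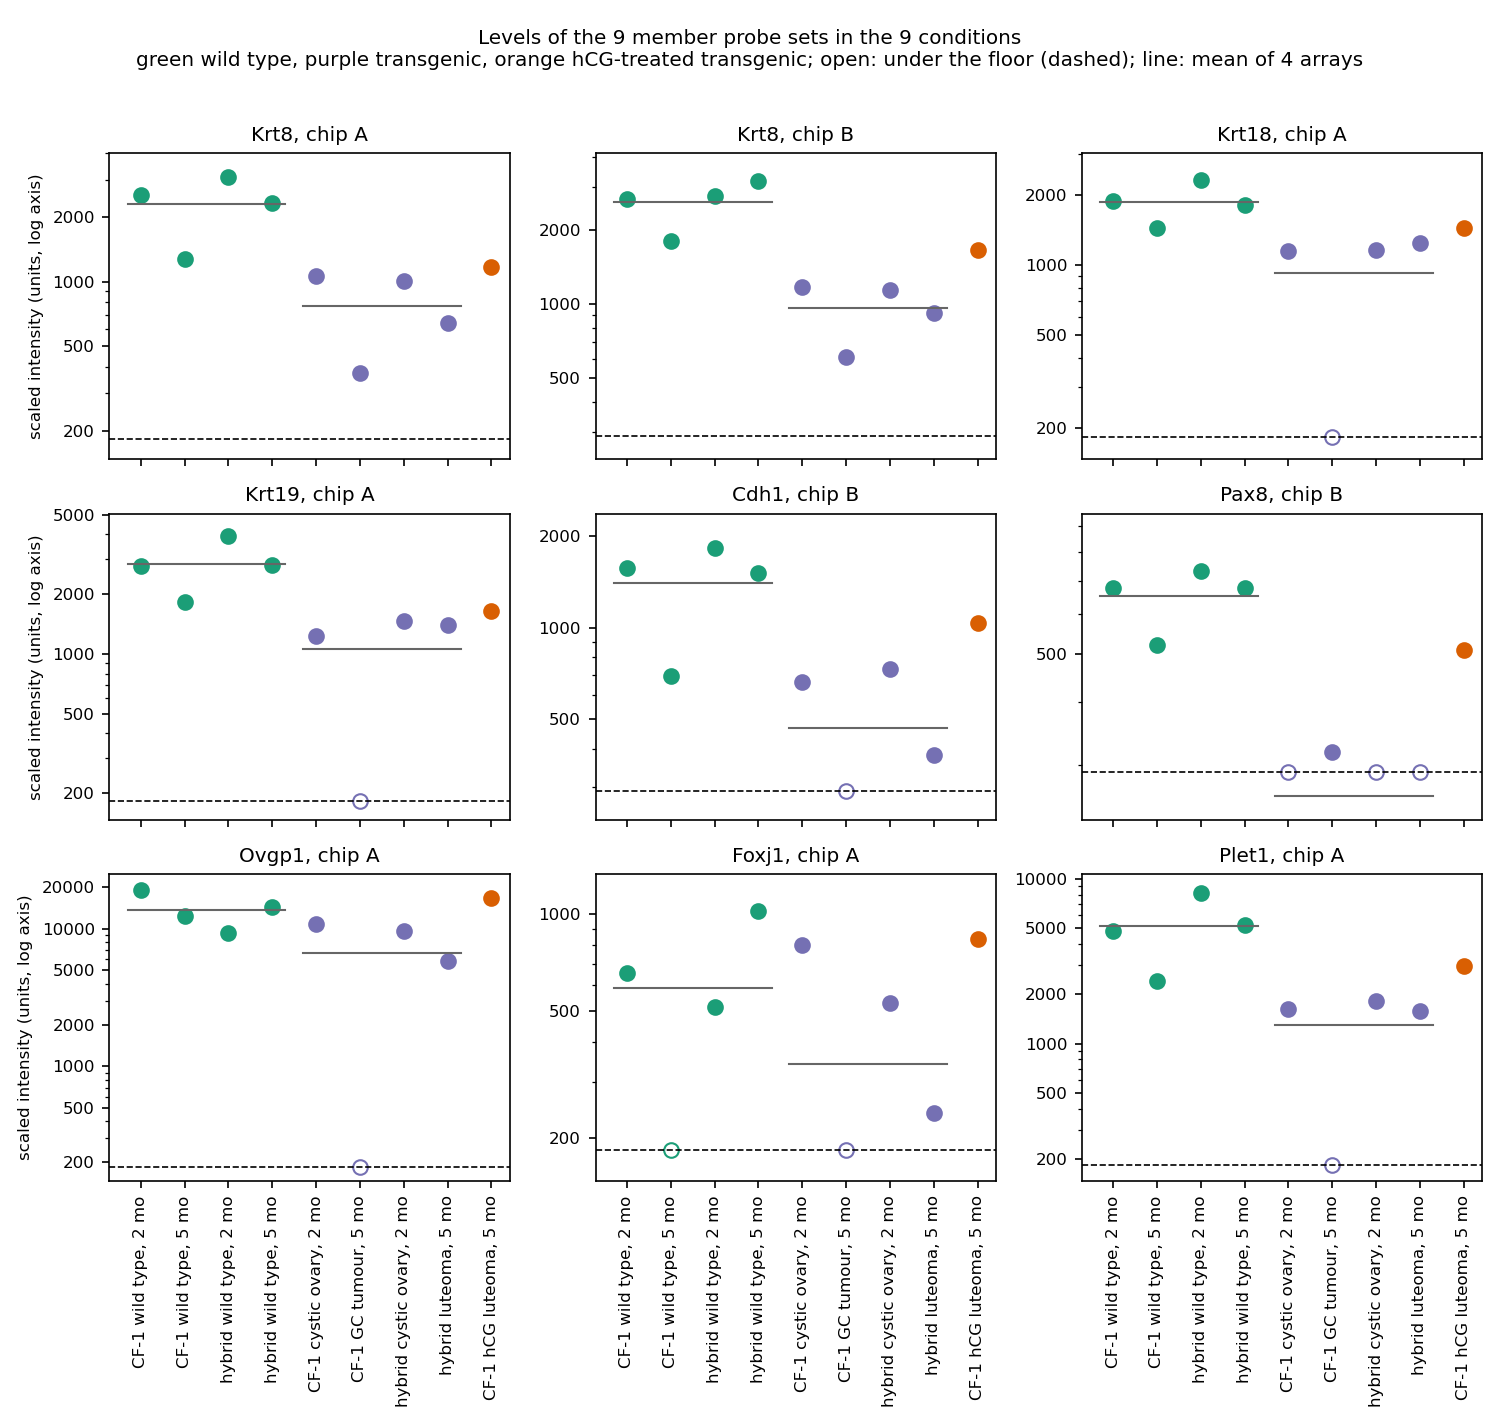
Scaled intensity (log axis) of each of the 9 probe sets on the single array of each condition, with wild type in green, untreated transgenic in purple and hCG-treated in orange; grey lines are means of 4 arrays before flooring, and open points under the floor are drawn on the dashed line. Krt8, Krt18, Krt19, Pax8 and Plet1 have all purple points below all green points, Ovgp1 and Foxj1 do not, and the tumour lies under the floor for Krt18, Krt19, Cdh1, Ovgp1, Foxj1 and Plet1.

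The 3 oviduct genes did not share one pattern. Pax8, the factor of secretory cells, was weak, above the detection limit in 3 of 9 conditions, all of them wild type. It read 677, 521, 733 and 677 units in the wild types (CF-1 at 2 and 5 months, hybrid at 2 and 5 months). It read 237 units in the CF-1 cystic ovary, 231 in the hybrid cystic ovary and 252 in the luteoma, all under the floor, and 318 units in the tumour. It was the only member not lowest in the tumour, although these 4 transgenic values lie at or close to the floor and have no dependable order.

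Ovgp1, the oviduct glycoprotein, read 19169 (CF-1) and 9338 (hybrid) units at 2 months, and 12352 and 14359 at 5 months. It read 10829 and 9714 units in the CF-1 and hybrid cystic ovaries, 5823 in the luteoma and 109, under the floor, in the tumour. Outside the tumour and the luteoma the transgenic values lay inside the wild-type range. In the hybrid cystic ovary Ovgp1 was 1.04-fold higher than in wild type, while Krt8 on chip A was 3.06-fold, Krt19 2.66-fold, Cdh1 2.49-fold and Plet1 4.54-fold lower on arrays of the same 2 conditions. In the CF-1 cystic ovary it was 1.77-fold lower and in the luteoma 2.47-fold lower. In the tumour it was at least 67.2-fold lower, the largest gap among the members.

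Foxj1, the regulator of ciliated cells, was above the detection limit in 6 conditions. It read 655 (CF-1) and 513 (hybrid) units at 2 months, and 156 and 1025 in the wild types of 5 months. The cystic ovaries read 800 (CF-1) and 530 (hybrid) units, the luteoma 239, and the tumour -207, below zero after background subtraction. Its cystic ovaries were thus 1.22-fold and 1.03-fold higher than wild type, while in the luteoma it was 4.29-fold lower, and in the CF-1 pair of 5 months both arrays were under the floor and no fold can be given. The 3 conditions in which Foxj1 was lowest are the 3 with the high BioDn-5 control. It was the only one of the 9 probe sets ordered in this way, and 10.3% of all probe sets tested were. Whether that array pattern has a part in the Foxj1 values was not tested.

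Counted together, 6 of the 9 probe sets, those of Krt8 (both), Krt18, Krt19, Pax8 and Plet1, had all 4 transgenic arrays below all 4 wild-type arrays, and 0 had them above. Over all probe sets tested the shares were 2.29% below and 1.86% above. As the genes were chosen on this contrast, nothing is read from the difference. Likewise 8 of the 9 were lowest in the tumour, which was the lowest array for 20% of all probe sets. In the pairs, a probe set was counted when it differed at least 2-fold with the brighter array above the detection limit. By this rule 6 of 9 were lower in the CF-1 cystic ovary and 6 in the hybrid cystic ovary, against 2.79% and 4.43% of all probe sets. In the tumour 7 were lower and in the luteoma 7, against 7.1% and 8.27%. The luteoma has the high BioDn-5 control and its wild type does not. None of the 9 was higher by this rule in any of these 4 pairs, where 2.95%, 4.35%, 5.04% and 6.57% of all probe sets were. The median log2 difference of the 9 was -1.19 and -1.32 in the cystic pairs, -1.78 in the tumour and -1.74 in the luteoma, while that of all probe sets lay between -0.07 and 0.012. Several values lay next to the 2-fold line, with Krt18 in the hybrid cystic ovary and Krt19 in the luteoma just outside it at 1.99-fold and Krt19 in the CF-1 cystic ovary just inside at 2.23-fold. At a 3-fold rule the counts were 0 in the CF-1 cystic ovary (0.531% of all probe sets), 2 in the hybrid cystic ovary (1.11%), 5 in the tumour (2.95%) and 5 in the luteoma (1.7%). There was 1 array a side, so none of these pairs has a replicate check.

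**Figure D2:**
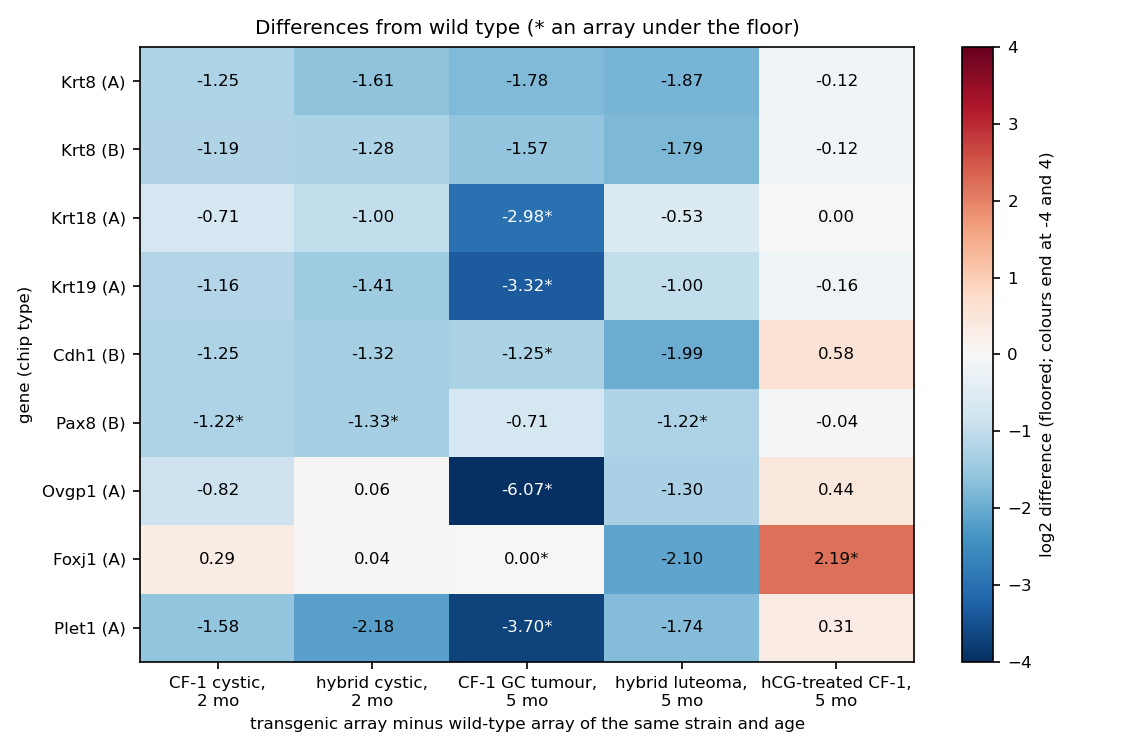
Log2 difference of each transgenic array from the wild-type array of the same strain and age, by gene and chip type, with blue for lower and red for higher; an asterisk marks a difference in which an array lay under the floor. The first 4 columns are blue for the keratins, Cdh1, Pax8 and Plet1, Ovgp1 and Foxj1 are near 0 in the hybrid cystic ovary, and the hCG column is pale except for Foxj1 at 2.19.

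The hCG-treated transgenic ovary read higher for these genes than the untreated transgenic ovaries. It lay above all 4 of them for 9 of the 9 probe sets, as it did for 20.9% of all probe sets tested. The genes were chosen for a low level in those 4 ovaries, so nothing is read from this count. The Krt8 probe sets of chips A and B read 1172 and 1664 units, just under the lowest wild types of 1276 and 1810. Krt18 read 1448 units, Krt19 1645 and Pax8 508, each also between the untreated transgenic and the wild-type arrays. In all, 5 of the 9 probe sets were below all 4 wild types there, against 24.7% of all probe sets. Krt18 counts on 1448.3 against 1448.5 units in the lowest wild type, practically equal. Pax8 counts on 508 against 521 units, both under the detection limit. Cdh1 at 1037 units, Plet1 at 2962, Ovgp1 at 16720 and Foxj1 at 839 were inside the wild-type range.

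Relative to the untreated CF-1 wild type of 5 months, the hCG-treated ovary had a median log2 difference of 0.0 over the 9 probe sets, and 0 were at least 2-fold lower, where 6.98% of all probe sets were. Foxj1 alone was higher by this rule, at least 4.56-fold, with 7.38% of all probe sets higher. That wild type has the high BioDn-5 control and the hCG-treated ovary does not, and for Foxj1 the wild-type array was under the floor. Relative to the untreated tumour of the same strain, age and genotype, 8 of the 9 were at least 2-fold higher, against 13.2% of all probe sets, with a median of 2.19. Ovgp1 was at least 91.0-fold, Plet1 at least 16.1-fold and the keratins Krt18 and Krt19 at least 7.88-fold and 8.95-fold higher, and Pax8, at 1.60-fold, was the exception. In the other direction 0 of the 9 were at least 2-fold lower than in the tumour, against 11.6% of all probe sets. This comparison used the tumour on which the genes were chosen, and the 2 arrays differ in the BioDn-5 control. The other luteoma, the untreated hybrid one, read less than the hCG-treated ovary for each of the genes. Examples are 644 against 1172 units for Krt8 on chip A and 239 against 839 for Foxj1. The 2 ovaries differ in strain, treatment and the BioDn-5 control at once.

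Age was fitted with limma. In a fit of genotype, strain and age to the 8 untreated conditions, 9 of the 9 probe sets had lower estimates at 5 than at 2 months, from -1.66 to -0.09 on the log2 scale with a median of -0.90, against a median of -0.02 over all probe sets. None passed the adjusted threshold of 0.05 in limma (adjusted p between 0.142 and 0.791), and 3 had an unadjusted p under 0.05, while 1 probe set of all tested (0.0156%) passed and 1252 (19.5%) had such an unadjusted p, where 320 are expected by chance. The smallest limma p-values belonged to Cdh1, at -0.90 ± 0.21 (SE, adjusted p = 0.142), with means of 1199 and 672 units at 2 and 5 months, and to Krt8 on chip A, at -0.89 ± 0.21 (SE, adjusted p = 0.142), with means of 1924 and 1159 units. Krt8 on chip B gave -0.41 ± 0.21 (SE, limma adjusted p = 0.322), less than on chip A. These estimates include the tumour, a 5-month array in which the genes had been chosen for their low level. Without it all 9 stayed negative but were smaller for 8 of them, from -0.90 (Foxj1) to -0.18 (Pax8) with a median of -0.40. Ovgp1 went from -1.66 to -0.25, Krt18 from -0.82 to -0.23, Krt19 from -0.97 to -0.40 and Plet1 from -1.25 to -0.69, while Cdh1 stayed at -0.87. None passed in limma without the tumour (adjusted p between 0.233 and 0.642) and 3 had an unadjusted p under 0.05, with 0 and 1092 (17.0%) of all probe sets.

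Within the wild types alone, the 5-month array was below the 2-month array for all 9 probe sets in CF-1, by 0.37 (Krt18) to 1.83 (Foxj1) on the log2 scale. In the hybrid wild types 6 were lower, and Krt8 on chip B (0.20), Ovgp1 (0.62) and Foxj1 (0.998) were higher. The chips therefore differed in sign for Krt8 in the hybrid, at -0.39 on chip A and 0.20 on chip B. Age runs nearly with the BioDn-5 control, since 3 of the 4 untreated arrays of 5 months and none of those of 2 months have it high. With a term for that control the age estimate became 0.10 for Krt8 on chip B, 0.008 for Pax8 and 0.93 for Foxj1. The other 6 had negative estimates, at -0.43 for Krt8 on chip A, -0.28 for Cdh1, -0.88 for Krt18, -0.99 for Krt19, -1.01 for Ovgp1 and -1.05 for Plet1. Their SEs ran from 0.256 (Cdh1) to 2.12 (Ovgp1), so nothing is read from their sign. The fit includes the tumour, and no fit with this term was made without it. The age estimates of this fit rest on the 1 untreated array of 5 months outside the pattern, the hybrid wild type. Age and the array pattern can therefore hardly be told apart. When the hybrid wild type of 5 months was left out, the only untreated 5-month condition with the low control, 254 of 6408 probe sets passed in limma. Cdh1 (-1.10) and Foxj1 (-1.68) were 2 of them, at limma adjusted p = 0.0402. That fit includes the tumour. Every 5-month array in it has the high control and no 2-month array has, so age and the array pattern cannot be told apart there. Nothing is read from these calls.

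For strain, estimates from the same limma fit were higher in the hybrid for 9 of the 9 probe sets, from 0.09 (Pax8) to 1.29 (Plet1) on the log2 scale, with a median of 0.48, against -0.001 over all probe sets. None passed limma's adjusted threshold (adjusted p between 0.62 and 0.922), 2 had an unadjusted p under 0.05, and over all probe sets 2 (0.0312%) passed and 505 (7.88%) had such a p. Plet1 averaged 2243 units in CF-1 and 4192 in the hybrid, a log2 difference of 1.29 ± 0.46 (SE, limma adjusted p = 0.62). The tumour, in which the genes had been chosen for their low level, is one of the CF-1 arrays. Without it 8 of the 9 estimates were positive with a median of 0.34, Plet1 gave 0.73, Krt19 0.50 and Krt18 0.26, and Ovgp1 turned to -0.41. In that fit 0 members passed limma's adjusted threshold (adjusted p between 0.548 and 0.917) and 2 had an unadjusted p under 0.05, against 1 (0.0156%) and 461 (7.19%) of all probe sets. Between the CF-1 and the hybrid cystic ovary, Krt18 read 1150 and 1166 units, Krt8 on chip A 1069 and 1008, Krt19 1238 and 1468, Cdh1 663 and 733, Plet1 1613 and 1801, Ovgp1 10829 and 9714 and Foxj1 800 and 530, with Pax8 under the floor in both.

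**Figure D3:**
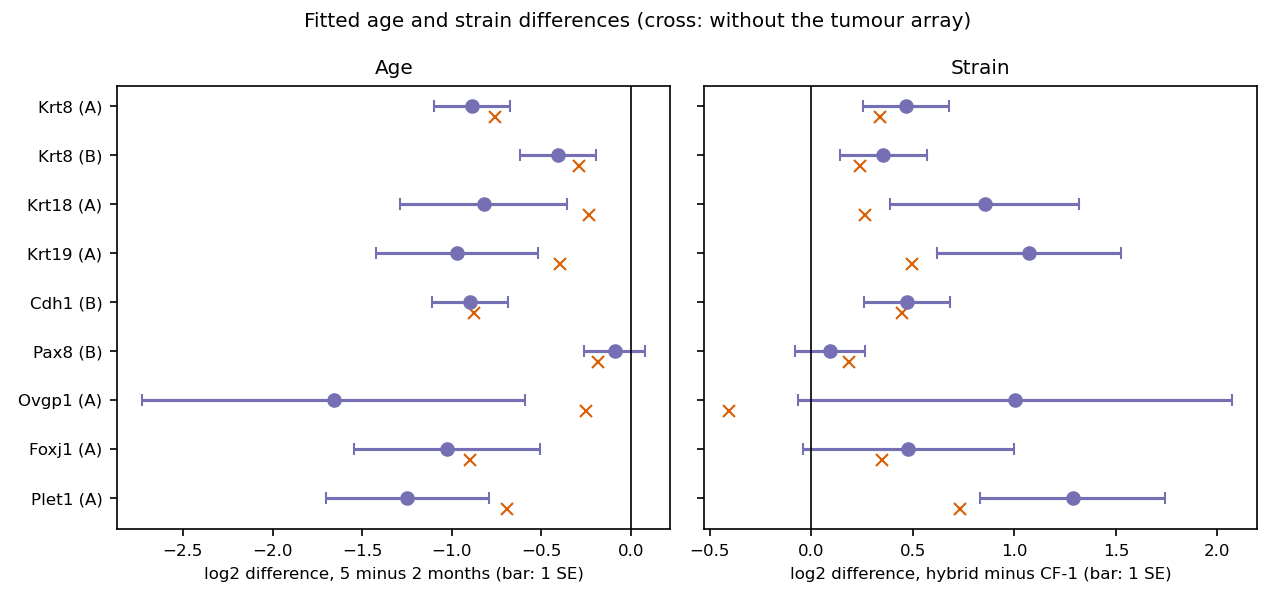
Fitted log2 differences (limma, 8 untreated conditions) of 5 minus 2 months and of hybrid minus CF-1 for each probe set, as points with bars of 1 SE, and the same estimates without the tumour array as crosses. All points lie left of 0 for age and right of 0 for strain, and without the tumour Ovgp1 changes side for strain, to -0.41.

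Other genes of these tissues, from 7 marker lists, place the members among their neighbours. These lists too were drawn up with earlier results of these data known, and their counts are descriptions. Of 31 genes of epithelial structure and junctions 14 could be tested. Of these, 4 (Epcam, Cldn3, Dsp and Dsg2) had all transgenic below all wild-type arrays and 0 had them above. Over all probe sets tested the shares were 2.29% and 1.86%. The list had a median log2 genotype difference of -0.42. Epcam, an epithelial adhesion molecule, averaged 523 ± 90.3 units over wild types and 255 ± 95.9 over transgenic arrays (SD, n = 4 each). Dsp, the plaque protein of desmosomes, averaged 2689 ± 536 and 1315 ± 424 units (SD, n = 4 each). The tight junction gene Cldn3 averaged 419 ± 109 units in wild types and lay at 20 to 185 units, close to or under the floor, in the transgenic ovaries. Spint1, a protease inhibitor of epithelia, overlapped, with 381 to 979 units in wild types and up to 805 units, in the luteoma, among transgenic ovaries.

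Of 14 further genes of oviduct and other Müllerian secretory cells 7 could be tested, with a list median of -1.02. Of these, 3 were lower without overlap, Ltf, Dcpp1 and S100g, against 2.29% of all probe sets. In the hybrid cystic ovary, where Ovgp1 matched its wild type, 6 of the 7 were at least 2-fold lower, against 4.43% of all probe sets. Ltf, which encodes lactoferrin, read 524 there against 1777 units. Dcpp1, a secreted protein, read 175 against 4005 units, and S100g, a calcium-binding protein, 157 against 1381. In the hCG-treated ovary they read 1674, 1083 and 1699 units, each above all 4 untreated transgenic ovaries. Cd24a, a surface glycoprotein found on granulosa as well as epithelial cells, read 2168 to 3939 units in wild types and 1104 to 2613 in transgenic ovaries, with the tumour at the top of the latter.

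Of 29 genes of motile cilia only 4 could be tested, Tubb4b, Ift88, Ift172 and Cetn2, all of which also serve cells without motile cilia. None separated the genotypes, and their median difference was -0.27. Ift88, a carrier protein of cilium assembly, read 1142 units in the hybrid cystic ovary and 1613 in its wild type, and 1383 and 1603 units in the CF-1 pair. Foxj1 was therefore the only dedicated marker of ciliated cells among the genes tested.

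The 6 tested genes of ovarian surface epithelium and mesothelium had list medians near or above 0 outside the tumour. Their median log2 difference was 0.06 and 0.37 in the cystic pairs and 0.13 in the luteoma, where the members were at -1.19, -1.32 and -1.74, and it was -0.76 in the tumour. None of the 6 had groups without overlap. Wt1, a transcription factor of mesothelium and of granulosa cells, read 4429 to 5767 units in wild types, 4948 and 4027 in the cystic ovaries, 3751 in the luteoma and 1220 in the tumour. Bnc1, basonuclin of the surface layer and of germ cells, read 495 and 510 units in the CF-1 wild type and cystic ovary, 568 and 404 in the hybrid pair of 2 months, 507 and 326 in the hybrid wild type and luteoma, and 91.0 in the tumour against 469 in its wild type. Calb2, the mesothelial marker calretinin, ran the other way, with 479 to 844 units in wild types and 762 to 1688 in transgenic ovaries. Msln, mesothelin, was under the floor in 5 of the 9 conditions and gave no usable level there. Upk3b, a uroplakin of mesothelium named here after its values were seen, read 1189 and 1377 units in the CF-1 wild type and cystic ovary, 1578 and 1894 in the hybrid pair, 1545 in the hybrid wild type of 5 months and 1975 in the luteoma, but 876 in the tumour against 2627 in its wild type.

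**Figure D4:**
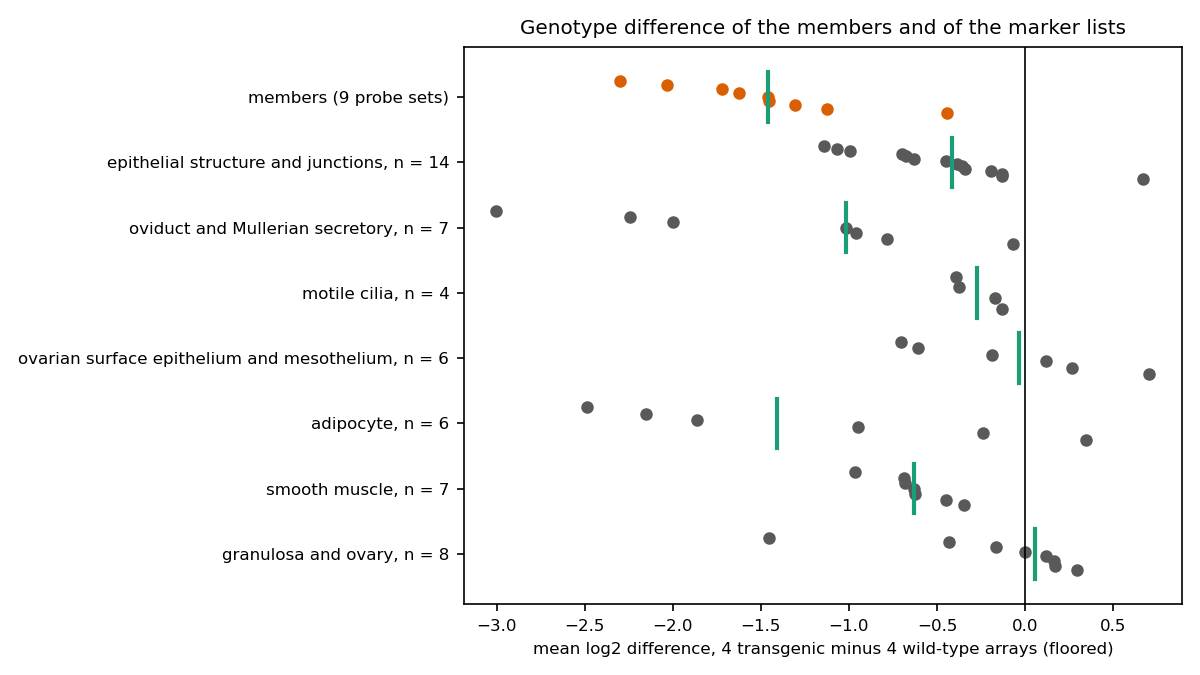
Mean log2 difference of 4 transgenic minus 4 wild-type arrays for the 9 member probe sets (orange) and for each tested gene of 7 marker lists (grey), with the median as a green line. The members' median is -1.46, the oviduct secretory and adipocyte lists have medians of -1.02 and -1.41, and the surface epithelium and granulosa lists have medians near 0.

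Markers of fat and smooth muscle, tissues attached to the ovary, were lower in part in the transgenic ovaries. Of 6 tested adipocyte genes 2 (Adipoq and Car3) were lower in all transgenic arrays, against 2.29% of all probe sets, with a list median of -1.41. The summed levels of the 6 were 5737 to 13097 units in wild types and 5424 to 6268 in transgenic ovaries. Adipoq, the fat hormone adiponectin, had levels of 613, 2037, 1656 and 2156 units in the wild types (CF-1 at 2 and 5 months, hybrid at 2 and 5 months) and 317, 154, 329 and 235 in the transgenic ovaries (CF-1 cystic, tumour, hybrid cystic, luteoma). Fabp4, a fatty acid carrier, and Retn, resistin, overlapped between genotypes, at 418 to 2349 against 50.8 to 732 units and 872 to 2774 against 696 to 1209 units. Of 7 smooth muscle genes 1 was lower without overlap, against 2.29% of all probe sets. It was Cnn1, the contractile protein calponin, at 1729 ± 503 against 853 ± 33.9 units (SD, n = 4 each). The list median was -0.63. By pair, its median was -0.67 in the CF-1 cystic ovary, -0.24 in the tumour and -0.93 in the luteoma. At least 2-fold lower there were 2, 1 and 2 of the 7, against 2.79%, 7.1% and 8.27% of all probe sets. In the hybrid cystic pair 0 of the 7 differed 2-fold, with a median of -0.17. In the same pair 4 of the 6 adipocyte genes were at least 2-fold lower, with a median of -1.32. Over all probe sets 4.43% were lower and 4.35% higher, and the members' median was -1.32. In the hCG-treated ovary the 9 member probe sets had a median of 0.0 relative to the untreated CF-1 wild type of 5 months. Foxj1 was at least 4.56-fold higher. The list of epithelial structure and junctions had a median of -0.41 there, with 2 of 14 genes at least 2-fold lower. In that ovary 5 of the 6 adipocyte genes were at least 2-fold lower than in that wild type, against 6.98% of all probe sets. Adipoq at 764 units and Car3 at 498 still lay above all 4 untreated transgenic ovaries and inside the wild-type range. Fabp4 at 569 and Retn at 726 units did not lie above those 4. The smooth muscle list had a median of 0.002 in this pair, with 0 genes at least 2-fold lower and 1 higher. The part of attached tissue in the levels of the epithelial genes was not tested.

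The granulosa and ovary list had a median genotype difference of 0.06 over 8 tested genes. In the tumour its median was 1.0 above wild type. Inhba and Inhbb, the inhibin and activin beta subunits, read 12028 and 10279 units there against 3080 and 4135 in the wild type of 5 months, while Krt18, Krt19, Ovgp1 and Plet1 were under the floor. In the luteoma the list median was -1.03 and the members' median -1.74. The share of granulosa or luteal cells in these ovaries, and its part in the levels of the epithelial genes, was not tested. Nr5a2, a nuclear receptor of granulosa and luteal cells, was the single gene of the list without overlap. It was higher in the transgenic ovaries, at 11851 to 16653 against 10326 to 11322 units, as were 1.86% of all probe sets. None of the genes of the 7 lists passed limma's adjusted threshold for age or strain.

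How far the members resembled each other was measured as the root-mean-square difference between log2 profiles over the 9 conditions. Each profile was centred on its own mean, and 0 stands for profiles alike in both shape and size of change. The SD of a member's profile ran from 0.549 (Pax8) to 1.94 (Ovgp1), so a given distance does not mean the same for each. Krt8 on chip A was 0.21 from Cdh1 and 0.26 from its own second probe set on chip B, and Krt18 was 0.24 from Krt19. Krt19 was 0.35 from Plet1. With the tumour left out, the keratins, Cdh1, Pax8 and Plet1 lay within 0.17 to 0.50 of each other. Ovgp1 lay 0.47 to 0.77 and Foxj1 0.69 to 0.94 from the other members. All chip A probe sets share one hybridisation per condition, so a like profile is in part a shared array.

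Among genes other than the members, the nearest to each member by the same measure on the same chip are given next. For Krt8 on chip A they were Slc39a4 (0.23), Rpusd4 (0.34) and Shroom3 (0.35), and on chip B Gsn (0.28), Nelfcd (0.45) and Vim (0.45). For Krt18 they were Acot9 (0.31), Ephx2 (0.35) and Meis1 (0.40), and for Krt19 Acot9 (0.52), Ephx2 (0.55) and Folr1 (0.56). Cdh1 was nearest to Gsn (0.39), Ltf (0.42) and Postn (0.43), and Pax8 to Nelfcd (0.26), Lgals1 (0.29) and Atp5pb (0.30). Foxj1 was nearest to Zfp36l1 (0.29), Fech (0.33) and Arcn1 (0.35), and Plet1 to H2-Aa (0.79), Ephx2 (0.81) and Shroom3 (0.82). The nearest to Ovgp1 were Star, the carrier of cholesterol into mitochondria (0.45), Ptgfr, the prostaglandin F receptor (0.47), and Abcb1b, a drug efflux pump (0.84). Without the tumour these 3 were 0.46, 0.49 and 0.80 from it. All 9 member probe sets carry the suffix with which Affymetrix marks probes that can match more than 1 transcript, and which transcripts bound was not tested.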

How the data were processed

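The deposited intensity values, 1 per probe set and array on a linear scale, contain values below zero, as after background subtraction; the sources used here do not say how the authors computed them. They were not on a common level, with trimmed means (2nd to 98th percentile) of 907 to 1756 units for chip A and 542 to 921 for chip B. Arrays of a chip type were therefore multiplied to share that mean, taken over the whole table. For the floor, each array gave its 25th percentile or the size of its 5th, whichever was larger, and the median array was used. On each chip, 76 probe sets were left out (55 Affymetrix controls and 21 named on both chips), and 13027 remained. Levels printed are before the floor and log2 differences after it, which understates those of low probe sets. Folds against an array under the floor are given as at least that size. There is 1 array per condition and chip, so the number of arrays limits the precision, and comparisons of pairs use a rule of size.

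Genes were named from the supplied platform annotation, with symbols updated by Entrez number. Among the probe sets kept of chips A and B, 5530 and 2001 had 1 symbol, 197 and 27 several, and 781 and 4491 none. In lists, a gene with several probe sets was represented by the brightest. Named genes are all members, from each list the up to 4 tested genes with the largest genotype difference, and the 3 nearest profiles of each member; exceptions are said in place. Age and strain were fitted with genotype by limma 3.58.1 in R 4.3.3 (lmFit, eBayes), with 4 residual degrees of freedom, on both chips, with Benjamini-Hochberg adjustment over 6408 probe sets. Its p-values rest on the spread between conditions, each a single sample, not between animals. The script was tested on simulated data. The members and lists were chosen with earlier results of these data known. Other floors, scalings, filters, variance models, interaction terms, a 3-fold rule and leaving out arrays were tried.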

Additional observations from a re-analysis of the deposited data

Results flagged for a closer look

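Within the 4 untreated transgenic arrays, the tumour stood apart from the other 3 in 5 of the 18 groups of arrays examined with Dixon's criterion, which picks about 1 group in 20 by chance where values were not chosen. Krt18 read 151 units there against 1150 for the next array, and the gap was 0.958 of the range, above the critical value of the test. Krt19 read 160 units against 1238, a gap of 0.918. Ovgp1 read 109 units against 5823, a gap of 0.848. Plet1 read 166 units against 1568, a gap of 0.939. Pax8 was flagged on the high side, at 318 units with the other 3 arrays under the floor. Those 3 were raised to the same floor value, so any tumour value above the floor gives a gap of 1.0. Nothing is read from that flag. The genes were chosen in part for their low level in the tumour, so the gaps on the low side restate that choice. Nothing is read from the number of flags.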

How the results depend on the processing

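Of the 9 probe sets, 5 to 7 had groups without overlap under every alternative tried, 5 with the floor doubled (1.89% of all probe sets) and 6 to 7 with 1 array left out (3.0% to 6.41%). With the hCG-treated ovary counted as transgenic, an alternative chosen after seeing the data, there were 5 (0.952% of all probe sets), and without the 3 arrays of high BioDn-5 control, also chosen then, 7 (13.0%). The hCG-treated ovary lay above the untreated transgenic arrays for 8 or 9 of the 9 in each alternative, all chosen after seeing the data. A 3-fold rule left 0 and 2 of 6 lower probe sets in the CF-1 and hybrid cystic pairs (0.531% and 1.11% of all probe sets), and 5 of 7 in each of the tumour and luteoma pairs (2.95% and 1.7%). The count of age calls over all probe sets, 1, was 0 with the floor doubled, quantile normalization, trend and robust variances, a strain-by-genotype term or the control profile term, 3 with no filter, and 0 to 254 with 1 array left out. The count of strain calls, 2, was 0 with the floor doubled, an age-by-genotype term or the control profile term, 1 with a floor of 20 units or trend and robust variances, 6 with no filter, and 0 to 1 with 1 array left out. The cause of these shifts was not tested. Of 135 age values of the members under alternatives, 130 kept their direction and 2 passed the threshold, and of 135 strain values 131 and 0. These are refits of the same 9 probe sets. All but the fit without the tumour hold the array on which the genes were chosen, so nothing is read from the kept directions. The 2 that passed came from the fit without the hybrid wild type of 5 months. In that fit 254 of 6408 probe sets passed. No paired analysis was possible because the labels give each condition 1 array per chip type and no replicate numbers that could pair animals. Signals close to the background limit what can be said of Pax8 and Foxj1, and of every member in the tumour. Krt8 was just above the detection limit there, at 372.5 against 367.6 units on chip A and 607.5 against 581.4 on chip B.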
